A study of Mus musculus with 12 samples.

Results

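RNA-seq of Epha2-null lenses was compared with that of wild-type lenses, using 6 of the 12 libraries of the study, 3 of each genotype, chosen by their genotype labels alone. All mice were at postnatal day 7 (P7) on the C57BL/6J (B6J) background, and each library was made from polyA RNA of 6 pooled lenses. The null allele carries an insertion of the plasmid vector pMCIneo in exon 5 of Epha2 in the germline, so that it was present in every tissue of the animal and not in the lens alone, and all 3 null libraries carried this same allele. The wild-type mice had no change at Epha2, and the 6 other libraries came from the gene-edited genotypes Epha2-Q722 and Epha2-indel722. Labels numbered the libraries within a genotype without giving litters, so p-values measure the spread between pools of lenses.

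EPHA2 is a receptor tyrosine kinase that binds ephrin ligands on neighbouring cells, and mutations of it cause cataract in humans. The lens holds an anterior layer of epithelial cells, which divide and, at the equator, begin to elongate into the fiber cells of its refractive mass. Fiber cells fill with crystallins, the structural and chaperone proteins of the lens, and later degrade their nuclei and other organelles.

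Library totals of the 6 libraries, worked out from the deposited counts and CPM values, were 14543069 to 19874646 reads. The 8676 genes of the table held 99.31% to 99.47% of these reads. Every listed gene reached 3 CPM (reads scaled to a common library size) in at least 6 of the 12 libraries, so a gene expressed above that level in the 3 null libraries alone could not be in the table. Values below are CPM after TMM scaling (normalized CPM), and 3 reads in a library stood for 0.151 to 0.206 CPM. Crystallin genes took 63.1% ± 1.19 (SD, n = 3) of the reads in wild type and 57.4% ± 0.296 (SD, n = 3) in Epha2-null. Epha2-null replicate 3 stood apart in the share of reads on the ribosomal RNA locus CT010467.1, at 0.508% against 3.83% and 2.59% in the other null libraries and 2.48%, 2.95% and 1.64% in wild type. The X-inactivation transcript Xist ranged from 0.0567 to 47.4 normalized CPM and the Y-linked Ddx3y from 5.65 to 25.2 across the 6 libraries, in both genotypes with wide spread (adjusted p = 0.49 and 0.82 between genotypes), so the pools differed in the sex of their mice. Their part in the other results was not tested.

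Epha2 itself (ENSMUSG00000006445, chr4:141301240-141329384 in mm10, + strand) was measured at 63.1, 51.4 and 56.04 normalized CPM in the 3 wild-type libraries and at 30.6, 36.2 and 36.9 in the 3 null libraries. All null libraries lay below all wild-type libraries, yet reads of the gene did not disappear. Its log2 fold change was -0.71 ± 0.09 (SE) with an adjusted p of 6.7e-06 by edgeR's quasi-likelihood test. The counts cover the whole gene, so that reads before and after the insertion could not be told apart.

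At 2-fold or more and an adjusted p at or below 0.05, the thresholds of the study, 30 genes were higher and 43 were lower in Epha2-null, or 0.346% and 0.496% of the genes tested. The study itself reported more rises than falls. It used another edgeR method, conditional maximum likelihood in pairwise comparisons, and its text does not name a scaling. Here the edgeR exact test on TMM-scaled counts gave 31 rises and 45 falls at these thresholds, and scaling to library totals gave 66 and 20. Why the study's counts differ was not tested further. Under TMM without the fold threshold, 432 genes (4.98%) rose and 540 genes (6.22%) fell, which together were 11.2% of all genes. The count of rises was 245 without wild type replicate 3, 266 without wild type replicate 1 and 284 without Epha2-null replicate 2. Most of these changes were small. Of the rises, 147 were under 1.25-fold, 187 were from 1.25-fold to 1.5-fold and 68 from 1.5-fold to 2-fold. Of the falls, 176, 231 and 90 were in the same ranges, so that 93.06% of the rises and 92.04% of the falls were under 2-fold. The libraries of the 2 genotypes did not overlap for 2481 genes (28.6%), among them all 73 genes called at 2-fold. Changed genes were more frequent where reads were many. Of the 868 genes in the lowest class of 10 by mean expression 34 rose and 36 fell (8.06%), and of the 868 in the highest class 54 rose and 131 fell (21.3%).

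**Figure D1:**
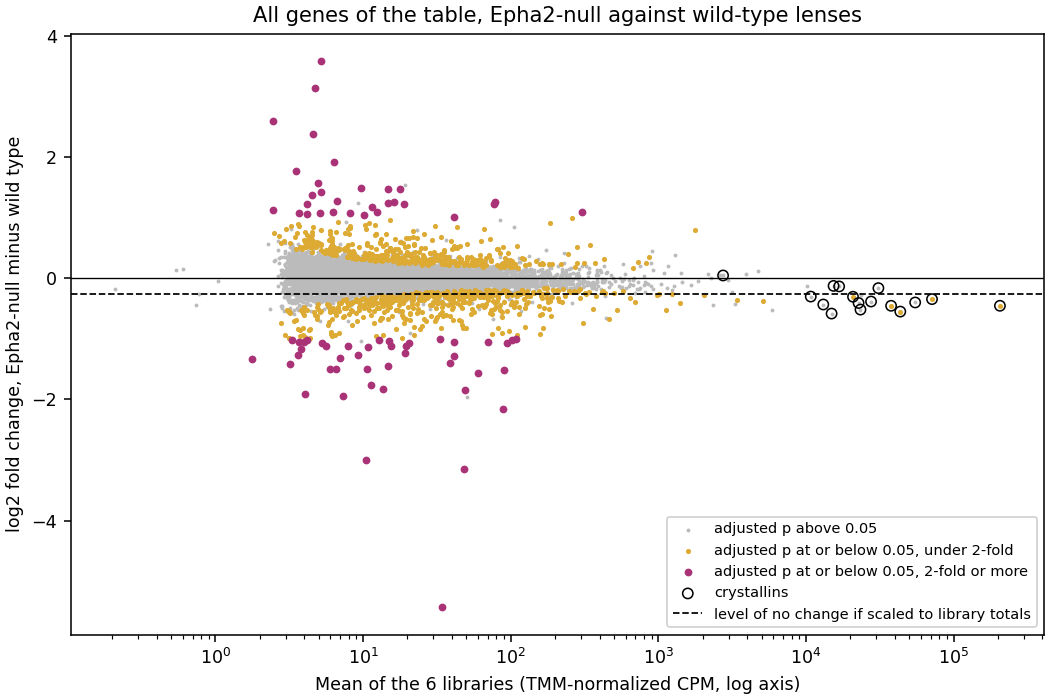
Mean normalized CPM of the 6 libraries (x, log axis) against the log2 fold change of Epha2-null minus wild type (y) for the 8676 genes, with calls by adjusted p and fold in colour and crystallins ringed. The 16 crystallins lie at the right, 15 of them below 0, and the dashed line marks where no change would lie if libraries were scaled to their totals.

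The count of changed genes, and above all their direction, turned on what was held constant between libraries. TMM set the median log2 fold change of the 8676 genes to 0.01, whereas scaling to library totals set it to 0.28, so that each gene was about 0.27 higher on the log2 scale under library totals than under TMM. Under library totals 4695 genes (54.1%) rose and 153 (1.76%) fell, 66 and 20 of them at 2-fold, so that 96.84% of changed genes were higher against 44.44% under TMM. Scaling to library totals without the crystallins gave 644 rises and 321 falls (66.74% higher), scaling to the cytosolic ribosomal protein genes gave 464 and 288 (61.7% higher), upper-quartile scaling gave 509 and 500 (50.45% higher), and size factors by the relative log expression method gave 413 and 551 (42.84% higher). No gene passed in opposite directions under TMM and library totals. Under all 6 scalings 397 genes (4.58%) rose and 152 (1.75%) fell, and of the 2-fold calls 30 rises and 19 falls held. Of the 432 rises under TMM, 397 were thus kept by every scaling, and of the 540 falls 152. Apart from the relative log expression factors, every other scaling moved genes up against TMM. Holding under all 6 scalings therefore asked little of a rise and more of a fall. Each count of list members that follows stands against these shares of all genes, 4.98% rising and 6.22% falling under TMM and 54.1% and 1.76% under library totals. Bulk libraries cannot tell fewer cells of a kind from less RNA per cell.

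**Figure D2:**
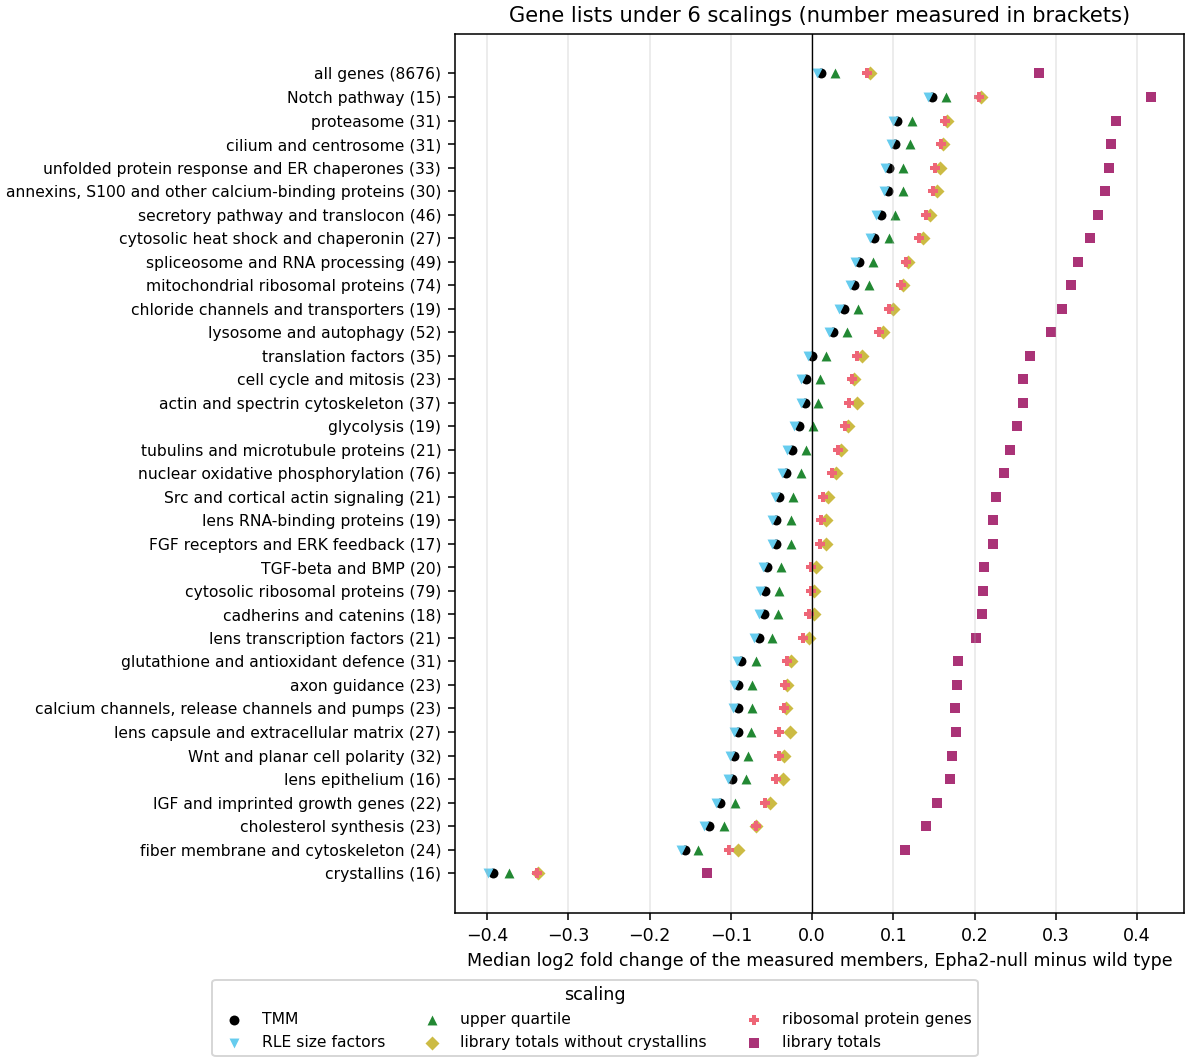
Median log2 fold change of Epha2-null minus wild type (x) over the measured members of each gene list of 15 or more measured genes (rows), under each of 6 scalings (symbols). Crystallins stay below 0 under every scaling, from -0.39 with TMM to -0.13 with library totals, while the median of all 8676 genes moves from 0.01 to 0.28.

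The largest fall was that of AI506816, an uncharacterised processed transcript (chr5:23698296-23712667), which was at 67.8, 67.97 and 65.2 normalized CPM in wild type and at 1.87, 1.24 and 1.55 in Epha2-null. Its log2 fold change of -5.43 ± 0.11 (SE) (adjusted p = 6.3e-21) was the lowest of the table. No null library reached 2 normalized CPM. Sox2ot, a long noncoding RNA whose gene spans Sox2, was at 90.4, 85.2 and 84.4 in wild type and 8.79, 9.12 and 11.4 in Epha2-null (log2 fold change -3.15 ± 0.23 (SE)). Sox2 itself, a transcription factor of the lens epithelium, was at 19.6, 18.2 and 16.4 and 14.9, 14.6 and 13.5, a fall of 0.33 on the log2 scale that was lost under library totals (-0.06), under library totals without crystallins (-0.27), under ribosomal protein scaling (-0.27) and without wild type replicate 1 (-0.28), Epha2-null replicate 2 (-0.34) or Epha2-null replicate 3 (-0.29). Gpd1l, which encodes a protein like glycerol-3-phosphate dehydrogenase, varied little within each genotype and was at 147, 144 and 145 in wild type and 34.04, 31.4 and 31.8 in Epha2-null (log2 fold change -2.17 ± 0.07 (SE), adjusted p = 5.6e-16). AI506816, Sox2ot and Gpd1l fell under all 6 scalings.

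Genes known from neurons and endocrine cells changed in both directions. Of 11 measured on that list 2 rose and 2 fell (5 and 2 under library totals). By log2 fold change, the rises were Uchl1, a ubiquitin hydrolase of neurons, at 0.32 and Rbfox3, a neuronal splicing factor, at 0.55 (0.49 and no longer called without Epha2-null replicate 1), and the falls were Insm1, a zinc finger factor of neuroendocrine cells, at -1.34 and Avp. Avp, the vasopressin precursor, was at 15.4, 22.3 and 18 in wild type and 2.10, 1.61 and 3.34 in Epha2-null (log2 fold change -3.00 ± 0.24 (SE)). Outside this list, Chrna4, a subunit of the nicotinic acetylcholine receptor, went from 21.2, 19.8 and 22.7 to 4.94, 5.85 and 7.20 (log2 fold change -1.82 ± 0.16 (SE)). Chrng, the gamma subunit of the fetal muscle receptor and the only other nicotinic subunit in the table, was at 146, 142 and 149 and 67.3, 76.9 and 73.7, with a log2 fold change of -1.0 ± 0.07 (SE) that lay at the 2-fold limit (-0.95 without Epha2-null replicate 1, -0.74 under library totals). In each of these 3 genes the null libraries lay below all wild-type libraries. Ngef, an exchange factor for small GTPases that acts downstream of Eph receptors of the EphA class, was at 89.8, 87.6 and 90.5 and 25.5, 27.9 and 37.2 (log2 fold change -1.56 ± 0.09 (SE), adjusted p = 2.8e-09). Unc5b, a netrin receptor, was at 5.50, 7.06 and 6.70 and 1.48, 1.92 and 1.73 (log2 fold change -1.91 ± 0.17 (SE)). Cx3cl1, a membrane-bound chemokine, was at 19.1, 24.9 and 20.4 and 7.49, 8.03 and 8.06 (log2 fold change -1.45 ± 0.12 (SE)). No null library of Ngef, Unc5b or Cx3cl1 reached the lowest wild-type library. Gadd45a, a gene of the growth arrest and DNA damage response, and Dbf4, the activator of the replication kinase CDC7, fell by 1.5 and 1.5 on the log2 scale. The falls of this paragraph and the rises of Uchl1 and Rbfox3 passed under all 6 scalings.

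Clic5, a chloride intracellular channel protein, was called at 2-fold but with scattered null libraries. It was at 143, 121 and 135 normalized CPM in wild type and at 27.3, 38.6 and 74.5 in Epha2-null. Epha2-null replicate 3 was the highest of the 3 and still below every wild-type library. The log2 fold change was -1.51 ± 0.35 (SE) with an adjusted p of 0.028, and the call was lost without wild type replicate 1 (-1.47), 2 (-1.59) or 3 (-1.51) without Epha2-null replicate 1 (-1.24) or 2 (-1.38), under ribosomal protein scaling (-1.45) and with the 6 libraries fitted alone (-1.52). Lgsn, lengsin, a lens protein related to glutamine synthetase, was at 83.2, 75.7 and 84.3 in wild type and 15.2, 14.2 and 33.4 in Epha2-null. These libraries did not overlap either, with a log2 fold change of -1.96 ± 0.62 (SE), but the adjusted p was 0.09. Dgat2, which makes triglycerides, was at 18.6, 20.4 and 20.9 and 8.91, 9.90 and 10.5, and its call (log2 fold change -1.04 ± 0.23 (SE)) was lost without wild type replicate 2 (-1.04) or 3 (-1.01) or any of the null replicates 1 (-0.98), 2 (-1.05) and 3 (-1.09).

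**Figure D3:**
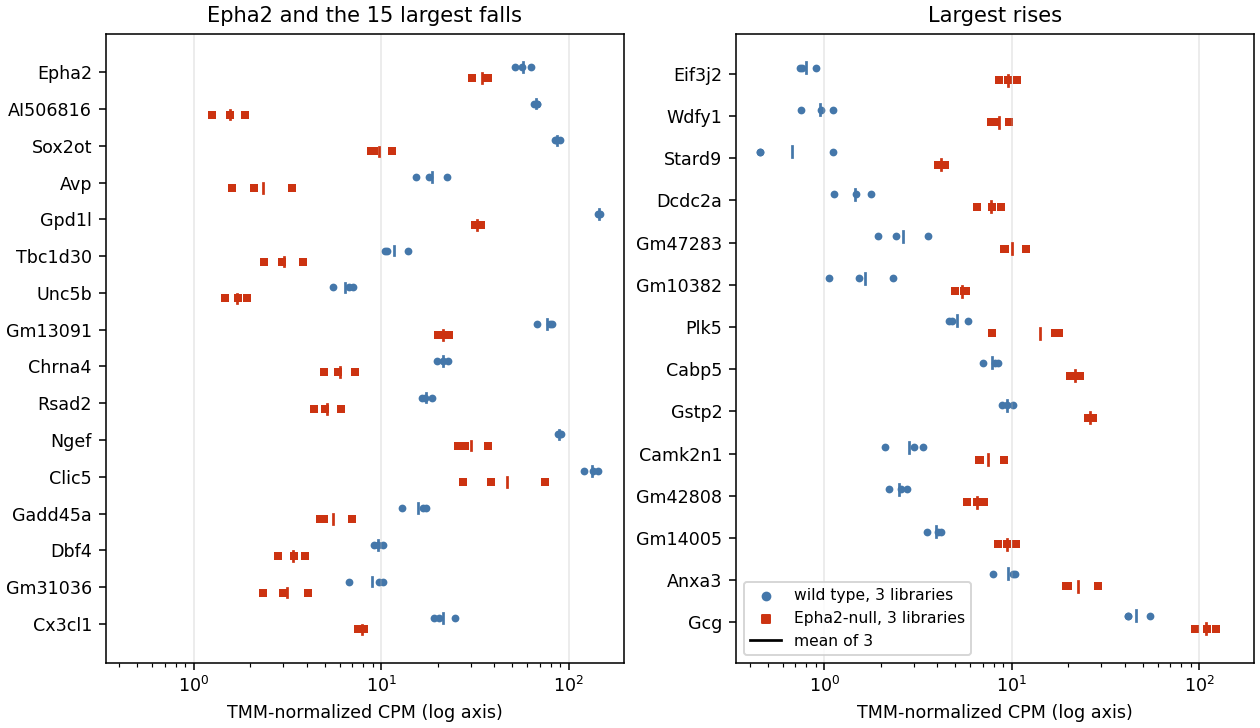
Normalized CPM (x, log axis) in each of the 3 wild-type (circles) and 3 Epha2-null (squares) libraries for Epha2, the 15 largest falls and the largest rises, of which 1 is not shown, with the mean of 3 as a bar. AI506816 lies above 65 in wild type and below 2 in Epha2-null, and Clic5 and Plk5 show 1 null library away from the other null libraries.

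Among the rises, Eif3j2 had the highest fold change, and its value depends on a near-identical copy. It was at 0.903, 0.765 and 0.738 normalized CPM in wild type and at 8.57, 10.7 and 9.50 in Epha2-null (log2 fold change 3.58 ± 0.23 (SE)). Eif3j1, the other gene for this subunit of a translation initiation factor, was at 24.1, 25.5 and 24.9 and 17.7, 16.9 and 15.6, a fall of 0.57 on the log2 scale. Reads shared by the 2 copies could not be assigned with certainty, so each value is uncertain. Wdfy1, an endosomal adaptor protein whose gene overlaps Mrpl44 on the other strand, was at 0.753, 1.12 and 0.965 in wild type and 9.64, 8.19 and 7.72 in Epha2-null (log2 fold change 3.14 ± 0.20 (SE)). Stard9, a kinesin of the centrosome whose gene overlaps Cdan1 on the other strand, was at 0.452, 1.12 and 0.454 and 4.42, 4.14 and 4.03 (log2 fold change 2.60 ± 0.26 (SE)), and Dcdc2a, a doublecortin-domain protein of cilia, was at 1.13, 1.76 and 1.48 and 8.74, 7.88 and 6.51 (log2 fold change 2.38 ± 0.19 (SE)). Wild-type values of these 4 rises were all below 2 normalized CPM, and the genes entered the table through libraries of other genotypes as well as the null ones.

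Gcg, the glucagon precursor, was at 41.6, 41.5 and 54.8 in wild type and 110.4, 122 and 95.4 in Epha2-null (log2 fold change 1.25 ± 0.22 (SE)). Plk5, a polo-like kinase, was at 5.87, 4.83 and 4.66 and 16.96, 17.8 and 7.83. Its null replicate 3 lay far below the other null libraries, and its call (log2 fold change 1.49 ± 0.32 (SE)) was lost without Epha2-null replicate 1 (1.35) and without wild type replicate 2 (1.44) or 3 (1.41). Gm47283 is annotated on the Y chromosome and has near-identical copies. Its rise (2.41, 1.94 and 3.58 in wild type, 9.08, 11.97 and 9.22 in Epha2-null) is uncertain because reads of copies could be split. The pools also differed in sex, and the part of sex in this rise was not tested. Of the 73 genes called at 2-fold, 69 kept an adjusted p of at most 0.05 with each of the 6 libraries left out in turn and 47 also stayed at 2-fold. Besides Clic5, Dgat2 and Plk5, the call of Stambpl1, a deubiquitinase, was lost without wild type replicate 2 (1.11), and its null replicate 3 was the highest of its libraries (47.96, 38.96 and 50.6 in wild type, 81.7, 93 and 148 in Epha2-null).

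Of 16 measured crystallin genes 5 fell and 0 rose under TMM, where 6.22% of all genes fell, and the other 11 did not pass. The median log2 fold change of the 16 was -0.39 against 0.01 over all genes. Under library totals 1 fell and 1 rose, with a median of -0.13 against 0.28 over all genes. The 5 falls were the chaperone alpha-crystallin Cryaa and the beta-crystallins Crybb1, Crybb3, Cryba1 and Cryba4. Crybb1 was at 53410, 48500 and 53430 normalized CPM in wild type and at 33600, 35240 and 37160 in Epha2-null (log2 fold change -0.55 ± 0.07 (SE), adjusted p = 9.5e-06). Cryaa, the gene with the most reads in the table, was at 245000, 224600 and 245200 and 163300, 171100 and 186800 (log2 fold change -0.46 ± 0.07 (SE)). All null libraries were below all wild-type libraries for both genes. Crybb1 alone of the 5 also fell under library totals (-0.28), where Cryaa was at -0.19, Crybb3 at -0.19, Cryba1 at -0.08 and Cryba4 at -0.04. The 5 calls under TMM held with each library left out.

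Gamma-crystallins varied most between null libraries. Cryga was at 15720, 19600 and 18360 in wild type and 14960, 12640 and 8215 in Epha2-null (log2 fold change -0.58 ± 0.28 (SE), adjusted p = 0.25), and Cryge was at 21570, 31700 and 29420 and 25310, 20380 and 12030 (log2 fold change -0.52 ± 0.35 (SE), adjusted p = 0.42). In each of Cryga, Crygb, Crygc, Crygd, Cryge and Crygf, none of which passed, the lowest library was Epha2-null replicate 3, the library with the lowest share of ribosomal RNA reads, and the highest null library was Epha2-null replicate 1. Values of these near-identical genes are also uncertain for reads that the copies share. Crygn was the only crystallin above 0 under TMM, at 2620, 2610 and 2879 and 2795, 2879 and 2688 (log2 fold change 0.04 ± 0.07 (SE), adjusted p = 0.77), and the one that rose under library totals (0.31).

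**Figure D4:**
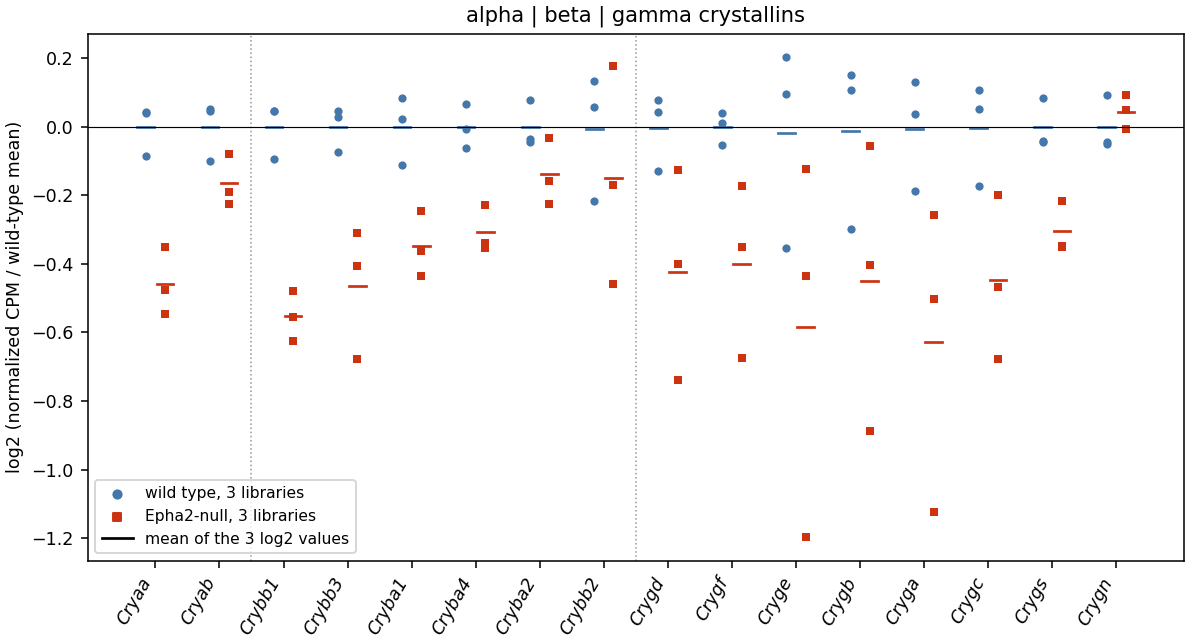
Normalized CPM of each crystallin gene relative to its wild-type mean (y, log2) in the 3 wild-type (circles) and 3 Epha2-null (squares) libraries, with bars for the mean of the log2 values. Cryaa, Crybb1, Cryba1 and Cryba4 lie lower with little scatter, while the null libraries of the gamma-crystallins Cryga to Crygf spread widely, replicate 3 lowest.

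Among the regulators of crystallins, Maf, a transcription factor that binds lens promoters, was at 1453, 1197 and 1365 in wild type and 859.9, 896 and 1024 in Epha2-null (log2 fold change -0.53 ± 0.08 (SE), adjusted p = 1e-04), and it fell under all 6 scalings. Promoters of crystallins were therefore searched for TGCTGA, the core of a MAF recognition element, on both strands in the window from 250 bases before to 50 bases after the RefSeq start. It was present in 10 of 15 crystallin promoters (66.7%), in all 5 that fell among them, in 7 of 20 promoters of fiber membrane and cytoskeleton genes (35%), and in 1173 of 6888 promoters of genes in the table (17%) or 21.7% of all RefSeq promoters. The 250 bases before the start of Cryaa and Crybb1, an alpha- and a beta-crystallin that fell, are shown with the match in capitals, for Cryaa at chr17:31677681-31677930 and for Crybb1 at chr5:112255570-112255819 (GRCm38.p6, + strand, RefSeq).
Cryaa: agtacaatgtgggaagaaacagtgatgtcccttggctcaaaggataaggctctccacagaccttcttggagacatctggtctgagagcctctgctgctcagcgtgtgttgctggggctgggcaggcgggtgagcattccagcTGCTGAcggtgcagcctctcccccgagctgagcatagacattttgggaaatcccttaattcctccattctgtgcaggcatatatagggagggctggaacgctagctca
Crybb1: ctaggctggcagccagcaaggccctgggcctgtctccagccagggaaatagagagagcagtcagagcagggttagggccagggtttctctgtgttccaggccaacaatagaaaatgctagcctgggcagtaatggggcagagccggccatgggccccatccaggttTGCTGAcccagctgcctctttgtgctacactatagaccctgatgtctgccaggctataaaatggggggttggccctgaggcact
The match in Cryaa began 108 bases before the start and that in Crybb1 began 84 bases before it. A match is a description of the letters and shows no binding, and the part of Maf in the falls of crystallins was not tested.

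The direction of other fiber cell genes turned with the scaling. Of 24 measured genes for fiber membrane and cytoskeleton, 1 rose and 7 fell under TMM (median -0.16), against 4.98% and 6.22% of all genes, while 8 rose and 1 fell under library totals (median 0.11), against 54.1% and 1.76%. Mip, the water channel of fiber membranes, was at 5871, 5538 and 6018 in wild type and 4361, 4380 and 4626 in Epha2-null (log2 fold change -0.38 ± 0.06 (SE)), and Lim2, a junctional membrane protein, at 3718, 3756 and 4094 and 2977, 3008 and 2976 (log2 fold change -0.37 ± 0.07 (SE)). Neither passed under library totals, where they were at -0.11 and -0.10. The 7 falls were 4 without Epha2-null replicate 1 or 2 or wild type replicate 1 or 3, and 7 and 9 without the remaining libraries. Caprin2, an RNA-binding protein of the lens fiber, went the other way, at 1334, 1141 and 1386 in wild type and 2011, 2197 and 2483 in Epha2-null (log2 fold change 0.79 ± 0.11 (SE), adjusted p = 0.00019), and rose under all 6 scalings.

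Of 21 lens transcription factors 1 rose and 5 fell (2 without Epha2-null replicate 3 or wild type replicate 1, 3 without Epha2-null replicate 2), and of 16 epithelial genes 1 rose and 4 fell (4.98% and 6.22% of all genes). Under library totals 7 of the transcription factors rose and 1 fell (median 0.20, against -0.07 under TMM), and 6 of the epithelial genes rose and 1 fell (median 0.17, against -0.10 under TMM). The epithelial rise was that of Cdh1, E-cadherin (0.31), under all 6 scalings but not without wild type replicate 3 (0.22). Of the falls, Maf and Gja1 alone held under all 6 scalings. Sox1, a fiber cell factor, was at 266, 239 and 253 and 173, 188 and 215 (log2 fold change -0.39 ± 0.07 (SE) under TMM, -0.12 under library totals). Gja1, the connexin of epithelial gap junctions, was at 51.6, 44.9 and 44.1 in wild type and 30.4, 28.1 and 32.95 in Epha2-null, and its log2 fold change of -0.62 ± 0.10 (SE) held under all 6 scalings. Foxe3 and Pax6, which maintain the lens epithelium, were at 103, 103 and 87.3 and 71.4, 73.8 and 73.8 in wild type and at 106, 98.5 and 105 and 81.8, 79.5 and 67.7 in Epha2-null, overlapping in both genes (log2 fold changes of 0.08 and 0.06). Prox1, a fiber factor, overlapped as well (-0.04), while Prox1os, which overlaps it on the other strand, was at 122, 119 and 135 and 65.9, 71.6 and 67.8 (log2 fold change -0.87 ± 0.07 (SE), adjusted p = 5.8e-09). The strand setting of the counting is not given in the sources used here, so reads of such overlapping pairs could not be told apart. The same holds for Gm26847, which overlaps Mip and fell by 0.73, and for Gm13091, which overlaps Rere and fell by 1.84 on the log2 scale.

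A minority of genes for protein folding and degradation in the endoplasmic reticulum (ER) rose. Of 33 measured genes of the unfolded protein response, by which cells raise chaperones and degradation when unfolded proteins collect in the ER, 6 rose and 0 fell, against 4.98% and 6.22% of all genes, and 27 did not pass. The median log2 fold change was 0.09 against 0.01 over all genes. Under library totals 27 rose and 0 fell. All 6 rises under TMM held under all 6 scalings, as did 397 of the 432 rises over all genes. Hspa5, the main HSP70 chaperone of the ER, was at 85.6, 94.7 and 91.5 normalized CPM in wild type and at 136, 133 and 123 in Epha2-null (log2 fold change 0.53 ± 0.06 (SE), adjusted p = 2.2e-06). Every null library lay above every wild-type library. Xbp1, a transcription factor of this response, was at 16.9, 19.5 and 18.9 and 23.3, 24.6 and 23.3 (log2 fold change 0.36 ± 0.08 (SE)). Dnajb9, Herpud1, Syvn1 and Pdia3, an ER co-chaperone, 2 parts of the ER degradation complex and a disulfide isomerase, had log2 fold changes of 0.38, 0.30, 0.27 and 0.19. Genes of the arm that leads to cell death gave no call. Ddit3, which promotes cell death, was at -0.08 and Atf4, a translation-controlled factor, at -0.11 (adjusted p = 0.86 and 0.3), and both turned above 0 under library totals (0.19 and 0.16). The 6 rises were 4 without Epha2-null replicate 3 or wild type replicate 1, 3 without Epha2-null replicate 1, and 2 without Epha2-null replicate 2 or wild type replicate 2 or 3. Hspa5 and Xbp1 kept their calls in each of these fits.

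The ER stress response element (ERSE), which is CCAAT and CCACG with 9 bases between them, was present on either strand in 8 of 29 promoters of this list (27.6%) against 12 of 6888 promoters of genes in the table (0.174%) and 0.137% of all RefSeq promoters. Of the 6 genes that rose, Hspa5 and Syvn1 held it, while 6 genes with the element, such as Calr and Hsp90b1, did not pass the test. The 250 bases before the start of the 2 that rose are shown with the element in capitals, for Hspa5 at chr2:34771840-34772089 and for Syvn1 at chr19:6046326-6046575 (GRCm38.p6, + strand, RefSeq).
Hspa5: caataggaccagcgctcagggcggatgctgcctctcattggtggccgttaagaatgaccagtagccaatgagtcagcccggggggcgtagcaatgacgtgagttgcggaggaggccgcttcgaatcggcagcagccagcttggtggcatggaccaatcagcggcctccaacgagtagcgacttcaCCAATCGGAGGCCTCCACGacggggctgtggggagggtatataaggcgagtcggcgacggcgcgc
Syvn1: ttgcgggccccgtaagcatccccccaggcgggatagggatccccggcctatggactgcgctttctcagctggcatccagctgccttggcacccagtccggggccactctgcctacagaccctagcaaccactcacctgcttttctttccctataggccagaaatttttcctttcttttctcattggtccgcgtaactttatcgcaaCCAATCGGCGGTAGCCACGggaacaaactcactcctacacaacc
Both elements lie in the forward orientation, from 65 to 47 bases before the start in Hspa5 and from 44 to 26 bases in Syvn1. The cyclic AMP response element TGACGTCA was found in none of the 29 promoters and in 3.8% of those of genes in the table.

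Of 27 cytosolic heat shock and chaperonin genes 3 rose and 0 fell, and of 31 proteasome genes 5 rose and 0 fell (medians 0.08 and 0.11), against 4.98% and 6.22% of all genes. Under library totals 24 and 30 rose and none fell. Sqstm1, the autophagy receptor p62, was at 133, 116 and 135 in wild type and 232, 233 and 259 in Epha2-null (log2 fold change 0.91 ± 0.08 (SE), adjusted p = 7.2e-07). Bag3, a co-chaperone that hands clients to autophagy, was at 16.3, 15.7 and 16.4 and 26.1, 25.96 and 30.8 (log2 fold change 0.78 ± 0.10 (SE)), and Dnajb1, an HSP40 chaperone, at 236, 220.5 and 243 and 330.5, 335 and 331 (log2 fold change 0.51 ± 0.07 (SE)). Their wild-type and null libraries did not overlap. Gabarapl1, which builds autophagosomes, was at 214, 197 and 220.2 and 276, 280.5 and 279 (log2 fold change 0.41 ± 0.07 (SE)), whereas Glb1, the lysosomal beta-galactosidase, fell from 31.9, 31.4 and 31.97 to 17.4, 18.6 and 19.2 (log2 fold change -0.79 ± 0.09 (SE)). Over 52 lysosome and autophagy genes 2 rose and 3 fell, no more than the shares of all genes, and 37 rose and 1 fell under library totals. Psma5, Psmc2, Psma2, Psmd6 and Psma6, subunits of the core and the cap of the proteasome, rose by log2 fold changes of 0.32, 0.26, 0.24, 0.22 and 0.22. These 5 calls held under all 6 scalings, and were 3 without Epha2-null replicate 1 or 2 or wild type replicate 1 or 3, 1 without wild type replicate 2 and 5 without Epha2-null replicate 3.

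**Figure D5:**
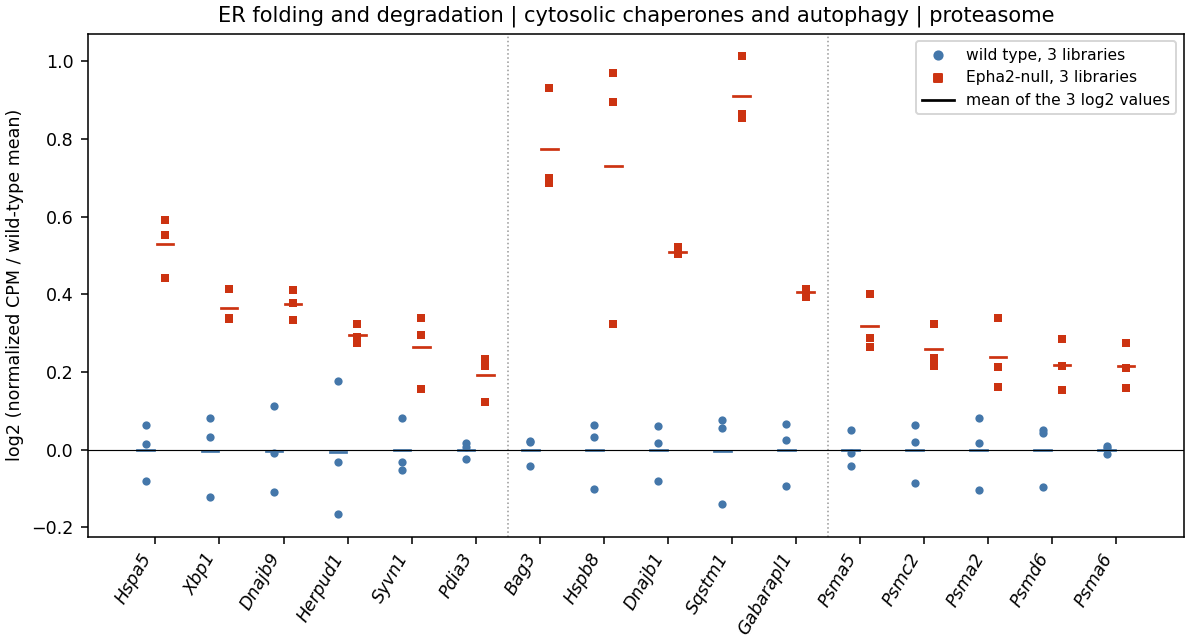
Normalized CPM relative to the wild-type mean (y, log2) for genes chosen because they rose, of ER folding and degradation (left), cytosolic chaperones and autophagy (middle) and the proteasome (right) in the 3 wild-type (circles) and 3 Epha2-null (squares) libraries, with bars for the mean of the log2 values. Every null library is above every wild-type library for genes such as Hspa5, Sqstm1 and Dnajb1, and the proteasome genes stay under 0.5 log2 units.

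Glutathione S-transferases, which couple glutathione to reactive compounds, are a family taken up after its values were seen. Of 12 measured genes 6 rose and 0 fell under TMM, against 4.98% and 6.22% of all genes. Under library totals 8 rose and 0 fell, against 54.1% and 1.76% of all genes. Gstp1 was at 185, 189.5 and 210.5 in wild type and 417, 431 and 402 in Epha2-null (log2 fold change 1.09 ± 0.06 (SE), adjusted p = 6.7e-11). Gstp2, its near-identical neighbour, was at 9.41, 8.89 and 10.1 and 26.3, 26.99 and 25.4 (log2 fold change 1.47 ± 0.10 (SE)), and reads of the pair could be split between them. Gstm1 was at 272, 288 and 283 and 415, 398 and 416 (log2 fold change 0.55 ± 0.07 (SE)), and Gstk1 rose from 3.01, 3.41 and 3.41 to 6.41, 7.56 and 6.80 (log2 fold change 1.07 ± 0.16 (SE)). Over the list of 31 glutathione and antioxidant genes 4 rose and 5 fell under TMM (median -0.09), and 13 rose and 0 fell under library totals (median 0.18). The 5 falls, among them Gpx1, a glutathione peroxidase (-0.29), and Hmox1, heme oxygenase (-0.41), did not pass under library totals (-0.02 and -0.14). The 5 falls were 2 without Epha2-null replicate 1 or 2 or wild type replicate 1 or 3, while the 4 rises held in each of these fits.

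Genes of growth factor signalling moved in both directions. Of 17 genes of FGF receptors and ERK feedback 3 rose and 2 fell (1 without Epha2-null replicate 1 or 2), and 10 rose and 1 fell under library totals. Dusp4, a phosphatase induced by ERK that inactivates it, was at 7.08, 8.12 and 6.13 in wild type and 16.4, 16.2 and 15.3 in Epha2-null (log2 fold change 1.17 ± 0.12 (SE), adjusted p = 2.8e-07). Etv5, a transcription factor induced by FGF, was at 37.5, 42.1 and 43.3 and 56.05, 58.6 and 66.5 (log2 fold change 0.56 ± 0.08 (SE)), and Spry1, an inhibitor of receptor tyrosine kinase signalling, at 28.4, 23.2 and 28.9 and 36.6, 33.3 and 34.96 (log2 fold change 0.38 ± 0.08 (SE)). These 3 feedback genes rose under all 6 scalings. Sulf2, an enzyme that trims heparan sulfate outside the cell, fell from 10.2, 9.42 and 10.2 to 3.86, 3.99 and 4.09 (log2 fold change -1.32 ± 0.14 (SE)).

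In the BMP pathway, Bmp7, a ligand, was at 27.2, 28.2 and 28.7 in wild type and 16.2, 17.2 and 14.6 in Epha2-null (log2 fold change -0.81 ± 0.11 (SE)). Smad1, a transducer of BMP signals, was at 21.3, 23.8 and 22.8 and 12.8, 14.97 and 15.7 (log2 fold change -0.64 ± 0.09 (SE)), and Smad6, an inhibitor that BMP induces, at 14.3, 13.01 and 13.8 and 9.87, 7.82 and 9.16 (log2 fold change -0.61 ± 0.10 (SE)). Their libraries did not overlap, and these 3 falls held under all 6 scalings and with each library left out. Id1 and Id2, targets of BMP, were higher instead (log2 fold changes of 0.34 and 0.39). Over the 20 genes of TGF-beta and BMP signalling 2 rose (1 without Epha2-null replicate 1 or wild type replicate 3) and 4 fell, and 8 rose and 3 fell under library totals. Of 32 genes of Wnt signalling and planar cell polarity 0 rose and 6 fell under TMM, but 10 rose and 0 fell under library totals, and none of them passed under all 6 scalings. Celsr1, a cadherin of planar cell polarity, was at 77.4, 81.03 and 72.3 and 49.4, 55.6 and 60.9 (log2 fold change -0.48 ± 0.07 (SE), -0.21 under library totals). The 6 falls were 4 without Epha2-null replicate 2 or wild type replicate 1, 2 or 3, 3 without Epha2-null replicate 1 and 6 without Epha2-null replicate 3.

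Of 10 measured Eph receptors and ephrins, Epha2 fell and Ephb6, a receptor without kinase activity, rose from 2.94, 3.18 and 1.93 to 4.37, 3.99 and 4.43 (log2 fold change 0.68 ± 0.17 (SE)), a call lost without wild type replicate 3 (0.46). The ligands Efna1 and Efna5, which bind EphA receptors, were at 0.32 and 0.14 on the log2 scale (adjusted p = 0.15 and 0.47). Among 23 axon guidance genes 4 rose and 4 fell (7 and 2 under library totals), with Robo1, a receptor of Slit proteins, at 7.98, 8.24 and 6.53 and 12.2, 13.1 and 14.5 (log2 fold change 0.81 ± 0.11 (SE)) and Sema3f, a secreted semaphorin, at 10.5, 13.1 and 9.94 and 7.49, 6.84 and 6.39 (log2 fold change -0.70 ± 0.12 (SE)), and both held under all 6 scalings.

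Of 30 annexin, S100 and related calcium-binding protein genes 8 rose and 2 fell, against 4.98% and 6.22% of all genes, with a median of 0.09. Under library totals 20 rose and 1 fell, against 54.1% and 1.76%. Anxa3 was at 10.2, 7.94 and 10.4 in wild type and 19.9, 19.4 and 28.8 in Epha2-null (log2 fold change 1.25 ± 0.15 (SE)), Anxa5 at 11.4, 9.47 and 10.1 and 20.4, 18.2 and 21.3 (log2 fold change 0.95 ± 0.11 (SE)) and Cabp5, a calmodulin-like protein known from retinal neurons, at 8.43, 7.06 and 8.18 and 21.8, 23.2 and 20.5 (log2 fold change 1.47 ± 0.11 (SE)). Anxa1, which is known for limiting inflammation, fell (-0.43), and not under library totals (-0.16). The 8 rises were 4 without wild type replicate 1, 5 without wild type replicate 2 and 6 to 8 without any of the others. Lgals1, a galectin that binds sugars of cell surfaces, was at 20.3, 21.5 and 23.6 and 37.3, 38.2 and 44.2 (log2 fold change 0.87 ± 0.09 (SE), adjusted p = 2.8e-07).

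In the cell cortex and matrix, 2 of 37 actin and spectrin genes rose and 5 fell, and 0 and 2 of 21 in Src and cortical actin signalling. Of 21 tubulin and microtubule genes 3 rose and 1 fell, and of 27 capsule and matrix genes 2 and 2, against 4.98% and 6.22% of all genes. Under library totals 21, 11, 10 and 9 rose and 0, 0, 0 and 1 fell, against 54.1% and 1.76%. The genes that follow were named because they changed. Fscn1, which bundles actin filaments, fell from 132, 124 and 130.0 in wild type to 51.4, 61.7 and 69.7 in Epha2-null (log2 fold change -1.08 ± 0.09 (SE)). Cttn, cortactin, which stabilises branched actin at the cell edge, was at 116, 125 and 129 and 93.7, 99.5 and 89.3 (log2 fold change -0.39 ± 0.06 (SE), -0.12 under library totals). Ctnna1, the alpha-catenin that ties cadherins to actin, was at 128, 134 and 134 and 89.98, 94.4 and 101 (log2 fold change -0.47 ± 0.06 (SE), -0.20 under library totals). Neither Cttn nor Ctnna1 passed under library totals. Map1a, a protein of microtubules, rose from 9.49, 12.5 and 11.7 to 23.8, 28.9 and 26.4 (log2 fold change 1.22 ± 0.15 (SE)), and Tuba1a, an alpha-tubulin with near-identical copies, from 745, 726 and 797 to 981, 972 and 935 (log2 fold change 0.35 ± 0.06 (SE)). The elastin-associated glycoproteins Emilin1 and Emilin2 went opposite ways. Emilin1 was at 29.4, 28.1 and 24.8 and 54.9, 53.7 and 57.4 (log2 fold change 1.01 ± 0.08 (SE)), and Emilin2 at 18.1, 16.8 and 17.03 and 8.68, 8.81 and 8.06 (log2 fold change -1.02 ± 0.10 (SE)), both under all 6 scalings. Ano1, a calcium-gated chloride channel, rose from 6.85, 10.4 and 6.53 to 17.8, 18.96 and 14.1 (log2 fold change 1.09 ± 0.14 (SE)).

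Counts for metabolic genes turned with the scaling. Of 23 cholesterol synthesis genes 0 rose and 4 fell (2 without wild type replicate 3, 3 or 4 otherwise), against 5 rises and 1 fall under library totals, and Dhcr7, the last enzyme of the pathway, was at 51.6, 59.9 and 57.7 in wild type and 17.8, 19.4 and 27.2 in Epha2-null (log2 fold change -1.40 ± 0.12 (SE), adjusted p = 1.8e-06). It alone of the 4 passed under library totals (-1.12). Of 76 nuclear genes of oxidative phosphorylation 1 rose (0 with any library left out) and 5 fell (1 without wild type replicate 3, 2 without Epha2-null replicate 2, 3 without Epha2-null replicate 1 or 3 or wild type replicate 1), near or below the 4.98% and 6.22% of all genes. Under library totals 54 rose and 0 fell (median 0.24, against -0.03 under TMM), and none passed under all 6 scalings. Of 79 cytosolic ribosomal protein genes 0 rose and 7 fell under TMM (median -0.06), but 50 rose and 0 fell under library totals (median 0.21). Their share of all reads was 1.88% ± 0.0286 (SD, n = 3) in wild type and 2.14% ± 0.0346 (SD, n = 3) in Epha2-null, so no direction can be given for them without choosing a scaling. In the growth factor list, Igfbp5, a binding protein of insulin-like growth factors, fell from 138, 158 and 137 to 68.3, 72.6 and 86.2 (log2 fold change -0.93 ± 0.11 (SE)) under all 6 scalings.

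Few markers of other cell types were in the table. Of the markers listed for macrophages and leukocytes (15), retinal neurons (13) and the corneal surface (9) none was in it. Both listed markers of pigmented epithelium and melanocytes, of 11 sought, were lower, and their summed level was 13.9 to 15.3 normalized CPM in Epha2-null, below the 19.2 to 21.9 of wild type. Oca2, a melanosome transporter, was at 3.92, 3.18 and 3.41 in wild type and 1.76, 2.18 and 2.30 in Epha2-null (log2 fold change -0.74 ± 0.19 (SE)), and Mitf, a transcription factor of pigment cells, at 17.99, 17.6 and 15.8 and 12.3, 13.2 and 11.6 (log2 fold change -0.46 ± 0.10 (SE)). Oca2 fell under all 6 scalings but lost its call without Epha2-null replicate 1 (-0.63) or wild type replicate 1 (-0.67), and Mitf did not pass under library totals (-0.20). Of 3 listed glial markers Glul, glutamine synthetase, rose (0.57) and Gfap, a filament protein of astrocytes, fell (-0.65), both under all 6 scalings and with each library left out. Of 10 markers of pericytes and smooth muscle 4 were listed, and their summed level was 81.9 to 107 normalized CPM in wild type, against 121 to 213 in Epha2-null, with adjusted p-values of 0.078 to 0.92 for the 4 genes. Most of this was Acta2, smooth muscle actin and a marker of epithelial-mesenchymal transition, at 65.9, 44.7 and 60.98 in wild type and 79.7, 89.7 and 165 in Epha2-null (log2 fold change 0.96 ± 0.29 (SE), adjusted p = 0.078), and Epha2-null replicate 3 was the highest. Pdgfrb, a defining pericyte receptor, was at 14.9, 13.1 and 13.1 and 15.9, 15.8 and 24.02 (log2 fold change 0.44 ± 0.17 (SE), adjusted p = 0.13). Under library totals both passed (1.24 and 0.71). The part of pigment, glial or vascular cells in the null values was not tested. Of the 9 measured genes of epithelial-mesenchymal transition, Mmp14, a matrix protease, rose (0.37), a call lost without Epha2-null replicate 1 (0.37) or 2 (0.32) and without wild type replicate 1 (0.27).

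Where Epha2-null differed from the other Epha2 genotypes was tested in the same fit. Of the 73 genes called at 2-fold against wild type, 61 also differed in that direction from Epha2-Q722, 40 from Epha2-indel722 and 32 from both. Of the 972 genes changed at the adjusted p alone, the counts were 573, 255 and 202. Shares over all genes are not given here, so these counts cannot be set against them. The null libraries enter each of these tests, so the counts are not independent of the call. The means of 3 in Epha2-Q722 and Epha2-indel722 were 65.98 and 61.2 for AI506816. Gpd1l was at 123 and 113 and Sox2ot at 42.6 and 74, and all 3 genes differed from Epha2-null in both. Gstp1, by contrast, was at 178 and 399.5, and Dusp4 at 4.16 and 15.4, and in these the test passed against Epha2-Q722 but not against Epha2-indel722. Eif3j2 and Stard9 showed the reverse, at 7.71 and 4.09 in Epha2-Q722 and at 0.936 and 0.789 in Epha2-indel722, with the test passed against Epha2-indel722 but not against Epha2-Q722. Both were too low in wild type to be listed unless libraries of an edited genotype were high as well. Their likeness to an edited genotype therefore followed from the filter of the table. Epha2 had means of 48.9 and 20.7 in these genotypes, above and below its level in Epha2-null, and both differences passed (adjusted p = 0.00026 and 7.1e-06).

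Genes near Epha2 on chromosome 4 were examined because DNA next to an allele is inherited with it. Within 10 Mb, 142 genes were measured, of which 11 rose and 7 fell (12.7%, against 11.2% of all genes). Of these, 2 were called at 2-fold. Camk2n1, an inhibitor of the kinase CaMKII, rose from 3.01, 3.35 and 2.10 in wild type to 6.75, 6.68 and 9.04 in Epha2-null (log2 fold change 1.41 ± 0.18 (SE)), and Gm13091 fell from 67.9, 81.7 and 79.5 to 19.97, 23.1 and 21.1 (log2 fold change -1.84 ± 0.11 (SE)). In Epha2-Q722, Camk2n1 was at 5.42 and Gm13091 at 30.1, and in Epha2-indel722 they were at 0.348 and 8.59 (means of 3). Against wild type, Camk2n1 was higher in Epha2-Q722 (log2 fold change 0.94) and lower in Epha2-indel722 (-3.02). Gm13091 was lower in both (-1.35 and -3.15). Among the rises under 2-fold was Necap2, whose gene lies at chr4:141066512-141078357. It was at 52.55, 43.13 and 48.38 in wild type and 77.84, 77.4 and 96.19 in Epha2-null (log2 fold change 0.81 ± 0.09 (SE), adjusted p = 1.8e-06). Its means of 3 were 51.35 in Epha2-Q722 and 53.61 in Epha2-indel722.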

How the data were processed

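Lenses of wild-type and Epha2-null mice at P7 were profiled by RNA-seq in 3 libraries per genotype. Per the submitters' processing notes, the authors used CASAVA, STAR 2.5.3a, SAMtools 1.4.1, HTSeq 0.11.0 and edgeR with the mm10 genome; the annotation release and strand setting are not given in the sources used here. The deposited table holds raw read counts per gene for each library, which were analysed, and the authors' CPM values. The CPM values served to check the filter of the table and, with the counts, to work out the library totals. Columns of the authors' own comparisons (log fold changes, mean log CPM, p-values and false discovery rates) were not used, and 0 sample columns were left out.

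Counts were fitted with edgeR 4.0.16 (R 4.3.3) by the quasi-likelihood test on TMM-scaled counts, with all 12 libraries sharing 1 estimate of spread (8 residual degrees of freedom), a prior count of 0.125 and Benjamini-Hochberg adjustment over 8676 genes. A gene rose or fell at an adjusted p of at most 0.05. Standard errors are those of the log2 fold change. The script was tested on simulated data. Alternatives were 5 other scalings, a filter at 10 CPM, the 6 libraries alone, the edgeR exact test, DESeq2 1.42.0, limma-voom (limma 3.58.1), a replicate block and each library left out. Gene positions are from GENCODE vM21 (mm10) and promoter sequences from RefSeq (GRCm38.p6).

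The comparison and gene lists were chosen with earlier results of these data known. Genes were named by rule: Epha2; genes that the study's text discusses; the 15 largest rises and falls at 2-fold; the 10 rises and falls under 2-fold with the smallest adjusted p; up to 4 changed members of each list; the 10 genes with most reads; and 2-fold genes within 10 Mb of Epha2. Not all of them are printed, and some genes are not reported here. Of the genes outside this rule, Chrng, Dgat2, Eif3j1, Fscn1, Gstk1, Stambpl1, Hmox1, Id1, Anxa1 and the remaining changed list members were chosen after their values were seen.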

Additional observations from a re-analysis of the deposited data

How the results depend on the processing

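Of 118 named genes, all kept their direction and their side of the threshold under relative log expression factors, upper-quartile scaling, limma-voom and the replicate block. Library totals ended 15 calls, added 9 and turned 3 directions. Library totals gave 66 rises and 20 falls at 2-fold, 4695 rises and 153 falls at the adjusted p, and a median of 0.279 over all genes; without crystallins they gave 321 falls and a median of 0.0715, and ribosomal protein scaling gave 288 falls and a median of 0.0672. The median was 0.0283 with upper-quartile scaling, -0.00196 among genes of at least 10 CPM (12 rises and 24 falls at 2-fold, with fewer genes tested), -0.00262 with the 6 libraries alone, and 0.0453 with totals lacking the 20 genes with most reads, a scaling chosen after seeing the data. Of the changed genes 44.44% were higher under TMM, and 57.21% with that scaling. With each library left out, rises ranged from 245 to 344 and the median from -0.00443 to 0.0124. Under library totals Atf4 was at 0.158, Ddit3 at 0.192 and Prox1 at 0.227 on the log2 scale, and Prox1 was at 0.0213 without crystallins and 0.0119 with ribosomal protein scaling. With each library left out, Ddx3y ranged from -1.24 to 0.00593, Efna5 from -0.02 to 0.282, Foxe3 from -0.00807 to 0.114 and Prox1 from -0.113 to 0.0356, so that each turned its direction once. None of these genes was called under TMM, and the cause of these shifts was not tested. DESeq2 gave 332 rises and 477 falls.

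The labels do not say whether replicate numbers pair pools across genotypes, and the libraries were treated as unpaired. Same-numbered libraries correlated in their deviations from the group means at -0.0899, -0.0251 and 0.0249. No null library correlated best with its own number. Deviations from a mean of 3 libraries depend on one another, so these values cannot decide whether pools were paired. The replicate block gave 413 rises and 546 falls, 30 and 44 of them at 2-fold, against 432, 540, 30 and 43 without it. A gene with few reads was limited by depth, since 3 reads stood for 0.151 to 0.206 CPM.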
